A study of Mus musculus with 12 samples.

Results

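Listed changes in cytosine modification were examined at 8 germline genes in the mouse retina: Dazl, Ddx4, Mael, Tdrd1, Stk31, Sycp1, Sycp3 and Hormad1. The genes were given by name, and each locus was taken as the GENCODE M21 gene with 5 kb on each side (mm10), which together spanned 463 kb. Of the 786,742 regions of both deposited lists, 105 overlapped these loci: 23 of the 193,836 regions from whole-genome bisulfite sequencing (WGBS) and 82 of the 592,906 regions from bACE-seq. The 8 genes are 8 of 21,911 protein-coding genes on the autosomes, X and Y.

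DNA came from whole retinas of mice labelled C57 BL/6J at postnatal day 21. Cre- animals (genotype label WT) were compared with Tet tcKO animals, in which floxed Tet1, Tet2 and Tet3 were deleted in retinal progenitor cells by the Chx10-driven Cre-GFP transgene, a mosaic driver that was carried in 2 copies. The 12 libraries divide into 3 per genotype for each assay. WGBS reads 5-methylcytosine (5mC) and 5-hydroxymethylcytosine (5hmC) together. In bACE-seq a deaminase removes the signal of 5mC, so that 5hmC alone is read. The lists hold 1 mean level per group and region and no value for a single library. No spread between replicates, no depth and no test could therefore be given for any level below, and a stretch that is in neither list may still have changed. Retina is a mixture of cells, and a lower level in every cell cannot be told apart from a modification carried by fewer cells.

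Germline genes of this kind are silent in somatic tissues. Many have CpG-dense promoters that, unlike most CpG-dense promoters, acquire 5mC in the embryo, and their repression also involves complexes that bind E-box and E2F-type motifs. The TET enzymes oxidise 5mC to 5hmC, so 5hmC at a promoter is made from 5mC that was there. At the loci of these genes the loss of the TET enzymes was accompanied by lower 5hmC over the promoters. All 82 bACE-seq regions were lower in Tet tcKO, as were 100% (rounded; 592,697 of 592,906) of bACE-seq regions in the whole list. All 23 WGBS regions were higher in Tet tcKO, the direction of 98.6% of WGBS regions in the whole list. Lower bACE-seq regions are called 5hmC losses here and higher WGBS regions are called WGBS gains. The direction at these loci was thus that of the genome as a whole, and what follows concerns where the regions lay and the levels in them.

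The promoters are shown first because the regions lie over them. All 8 were CpG-dense, with 46 to 73 CpGs in the 1-kb window centred on the 5′ end and a ratio of observed to expected CpGs of 0.652 (Sycp3) to 0.742 (Ddx4). A gene was called CpG-dense at a ratio of at least 0.6, which 10,067 genes met. Below are the 150 bases before the 5′ end of 6 members, from the RefSeq copy of GRCm38 (mm10), on the strand of the gene. Capitals mark the E-box CACGTG, a palindrome, and the E2F-type motif TCCCGC or its reverse complement GCGGGA. Sycp3 and Hormad1 are shown because each held a pair of E-boxes, Sycp1, Tdrd1 and Stk31 because each held one, and Dazl because it held neither motif. Ddx4, not shown, also held neither in these 150 bases, but had GCGGGA beginning 29 bases after the 5′ end.
Sycp3 (chr10:88459419-88459568, + strand): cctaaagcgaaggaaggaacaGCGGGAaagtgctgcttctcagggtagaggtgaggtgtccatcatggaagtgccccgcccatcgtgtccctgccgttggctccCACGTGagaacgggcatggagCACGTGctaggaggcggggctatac
Hormad1 (chr3:95559527-95559676, + strand): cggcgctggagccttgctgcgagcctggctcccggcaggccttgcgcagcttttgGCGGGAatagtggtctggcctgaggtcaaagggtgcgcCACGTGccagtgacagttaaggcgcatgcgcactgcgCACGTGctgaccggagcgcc
Sycp1 (chr3:102936101-102936250, - strand): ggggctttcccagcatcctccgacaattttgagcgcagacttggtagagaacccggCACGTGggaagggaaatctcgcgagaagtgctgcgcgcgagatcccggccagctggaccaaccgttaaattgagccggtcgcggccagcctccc
Tdrd1 (chr19:56826059-56826208, + strand): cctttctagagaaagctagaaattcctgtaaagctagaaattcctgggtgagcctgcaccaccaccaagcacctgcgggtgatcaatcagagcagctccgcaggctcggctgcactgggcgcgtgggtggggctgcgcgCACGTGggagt
Stk31 (chr6:49395454-49395603, + strand): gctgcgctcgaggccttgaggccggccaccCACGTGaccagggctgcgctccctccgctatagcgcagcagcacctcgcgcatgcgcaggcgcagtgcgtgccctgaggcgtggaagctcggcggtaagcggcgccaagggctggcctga
Dazl (chr17:50293637-50293786, - strand): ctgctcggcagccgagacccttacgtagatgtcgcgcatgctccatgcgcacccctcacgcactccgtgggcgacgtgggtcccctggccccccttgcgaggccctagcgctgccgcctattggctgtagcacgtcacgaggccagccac

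In the window from 250 bases before to 50 bases after the 5′ end, CACGTG was found at 6 of the 8 genes, against 11.1% of CpG-dense genes and 7.74% of all protein-coding genes. The E-boxes of Sycp3 began 46 and 25 bases before the 5′ end and those of Hormad1 began 57 and 20 bases before it. Those of Tdrd1, Sycp1, Stk31 and Mael began 11, 94, 120 and 220 bases before it. TCCCGC on either strand was found at 5 of the 8 (Ddx4, Mael, Sycp1, Sycp3 and Hormad1), against 41.3% of CpG-dense genes and 24.0% of all genes. Both motifs were found at 4 of the 8 (Mael, Sycp1, Sycp3 and Hormad1) and at 4.65% of CpG-dense genes. The motifs do not overlap each other, and a match is a match of letters and not a bound site.

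A 5hmC loss lay over the 5′ end of 7 of the 8 genes. The exception was Ddx4, whose loss began 7 bp downstream of the 5′ end and covered its other annotated start site, 174 bp downstream. Among all CpG-dense protein-coding genes a 5hmC loss covered the 5′ end of 2.63% (265 of 10,067), and among all protein-coding genes of 12.2% (2667 of 21,911). With a window of 2 kb on each side the count was 8 of 8, but such a wide window held a 5hmC loss at 93.2% of CpG-dense genes and 78.2% of all genes, so the wider count sets the 8 genes apart from the others very little. The regions over or beside these 8 start sites are called start-site regions below, and the map of the start sites shows them all.

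**Figure D1:**
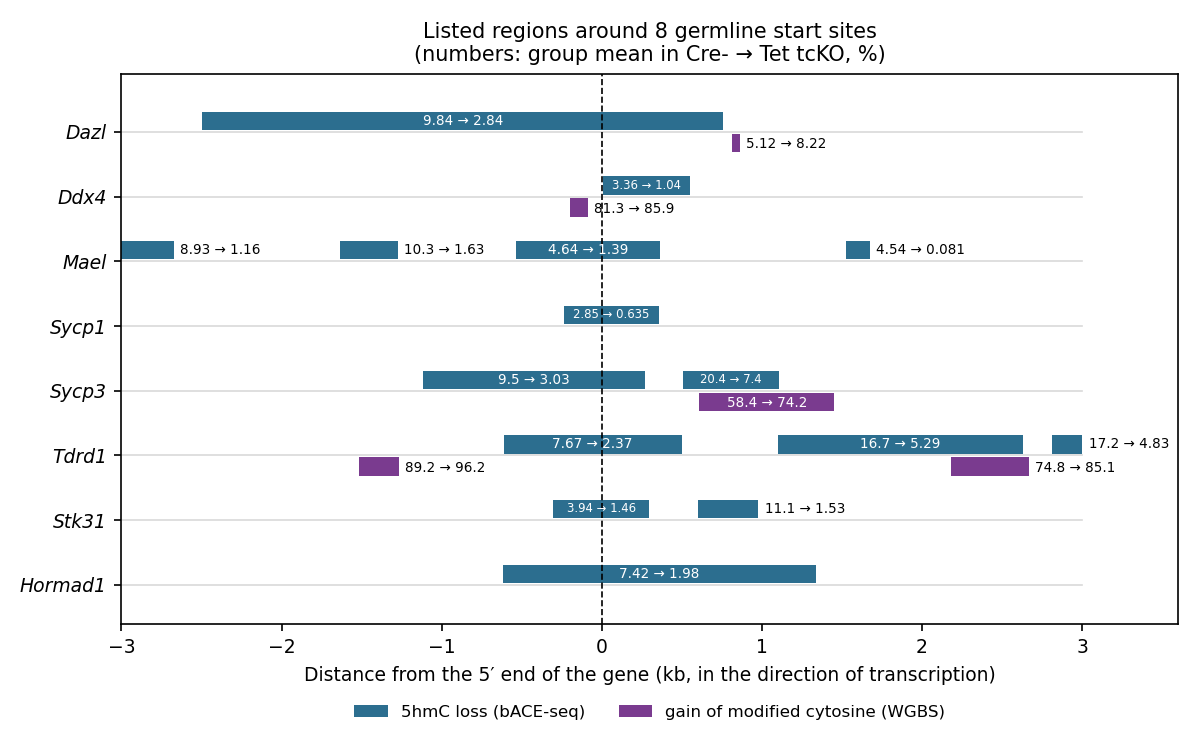
Regions of both lists within 3 kb of the 5′ end of each gene (x axis, distance in kb in the direction of transcription), with 5hmC losses in blue and WGBS gains in purple, each with its group means in Cre- and Tet tcKO in percent. A 5hmC loss covers the 5′ end of each gene except Ddx4, where it begins 7 bp downstream, and no WGBS gain covers a 5′ end.

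The start-site regions were low in 5hmC and rich in CpGs. Their levels in Cre- ran from 2.85% to 9.84% and in Tet tcKO from 0.635% to 3.03%. They held 39 to 148 CpGs (median 57.5), whereas the median 5hmC loss of the whole list held 8 and 3.94% of all losses held at least 39. The 265 regions over CpG-dense 5′ ends, 7 of which belong to the genes described here, had a median of 29 CpGs, and their levels had medians of 6.86% in Cre- and 1.84% in Tet tcKO. The middle 80% of those Cre- levels lay between 1.62% and 15.3%, a range that holds all 8 start-site regions. The levels over these promoters were therefore not unusual among listed CpG-dense promoters. The paper estimates that about 2% of unmodified cytosines stayed unconverted in bACE-seq. The lowest Cre- levels, at Sycp1, Ddx4 and Stk31, were little above that background, and 5 of the 8 Tet tcKO levels were below it.

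The genes fall into 3 groups by the process in which their proteins act, and the first is the regulation of germ cell RNA. Dazl, an RNA-binding protein needed for germ cell development (chr17:50279395-50293636, - strand), had the longest and most CpG-rich start-site region. It ran from 2494 bp upstream to 758 bp downstream of the 5′ end, covering the first exon and a second annotated start site, and held 148 CpGs. The level went from 9.84% in Cre- to 2.84% in Tet tcKO, so that 28.9% of the Cre- level was kept. Of the 592,697 5hmC losses of the whole list, 459 held at least as many CpGs. Apart from it, the locus held 1 other 5hmC loss, of 5 CpGs in a stretch that overlaps a coding exon 8472 bp downstream, with 5hmC of 7.81% in Cre- against 0.171% in Tet tcKO. Ddx4, the germ cell RNA helicase also known as Vasa (chr13:112598333-112652475, - strand), had the start-site region of highest CpG density, with 67 CpGs in 546 bp, or 12.3 CpGs per 100 bases. Its 5hmC level was low in both groups, 3.36% in Cre- and 1.04% in Tet tcKO.

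The second group acts in the piRNA pathway, in which small RNAs direct the silencing of transposons in germ cells. Mael, a protein of the nuage needed for transposon silencing (chr1:166201201-166238747, - strand), had a start-site region from 539 bp upstream to 363 bp downstream with 61 CpGs, at 4.64% in Cre- and 1.39% in Tet tcKO. Smaller losses of Mael lay on both sides of it, with 10 CpGs 1274 to 1637 bp upstream at 10.3% and 1.63% and 4 CpGs in an intron 1527 bp downstream at 4.54% and 0.081%. Tdrd1, a Tudor-domain protein that binds PIWI proteins (chr19:56826209-56870012, + strand), had 57 CpGs from 612 bp upstream to 498 bp downstream, at 7.67% in Cre- and 2.37% in Tet tcKO. The next loss, in an intron 1101 to 2628 bp downstream, held 26 CpGs at the higher levels of 16.7% and 5.29%. A further annotated start site of Tdrd1, 4503 bp downstream, lay within another 5hmC loss of 22 CpGs at 11.1% and 3.93%. Stk31, a Tudor-domain protein with a kinase-like domain whose part in this pathway is less clear (chr6:49395604-49469501, + strand), had 48 CpGs from 305 bp upstream to 295 bp downstream. Its 5hmC was 3.94% in Cre- against 1.46% in Tet tcKO (37.1% kept). In its intron, 602 to 977 bp downstream, 5 CpGs had 11.1% and 1.53%.

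The third group builds the meiotic chromosome axis and the synaptonemal complex, which holds paired chromosomes together. Sycp1, the transverse filament protein of that complex (chr3:102818499-102936100, - strand), had the lowest start-site level of the 8. Its region ran from 236 bp upstream to 355 bp downstream with 55 CpGs, and 5hmC there was 2.85% in Cre- against 0.635% in Tet tcKO, so that 22.3% was kept. Sycp3, a protein of the lateral elements (chr10:88459569-88473236, + strand), had 39 CpGs from 1114 bp upstream to 270 bp downstream, at 9.50% in Cre- and 3.03% in Tet tcKO. The gene lies within Chpt1, which is annotated on the other strand, so these regions also lie within that gene. Hormad1, a HORMA-domain protein of the chromosome axis (chr3:95559677-95587671, + strand), had 58 CpGs from 617 bp upstream to 1338 bp downstream, at 7.42% in Cre- and 1.98% in Tet tcKO. In order of the Cre- level the 8 start sites ran Sycp1, Ddx4, Stk31, Mael, Hormad1, Tdrd1, Sycp3 and Dazl. Without replicate values, it cannot be said which neighbours in this order differ beyond their spread.

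The 5hmC losses away from the start sites were CpG-poor and higher in 5hmC. There were 74 of them, with a median of 7 CpGs and 1.96 CpGs per 100 bases, against 5.94 per 100 bases for the start-site regions. Weighted by CpGs, these other losses averaged 14.4% in Cre- against 3.69% in Tet tcKO, whereas the 8 start-site regions averaged 6.66% and 1.97%. In 69 of the 74 the Cre- level was above that of the start-site region of the same gene, and the weighted mean of the other losses was the higher one at 7 of the 8 genes. Dazl was the exception, with 9.84% at the start site and 7.81% in its 1 other loss. The share of the Cre- level that was kept ran from 22.3% to 37.1% in the start-site regions. In the other losses it ran from 2.19% (Dazl, 1 region) to 30.1% (Sycp3), and it was lower than at the start site at all 8 genes. This order rests on levels near 0: with 2 percentage points of assumed unconverted cytosine subtracted from both groups, 5 start-site regions kept nothing, and the start site kept the larger share at 1 gene (Dazl) and the smaller at 5. Of the 74 other losses 10 kept less than 10% of the Cre- level, and 8 of these 10 had 4 or 5 CpGs, so that few sites stand behind the lowest shares.

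**Figure D2:**
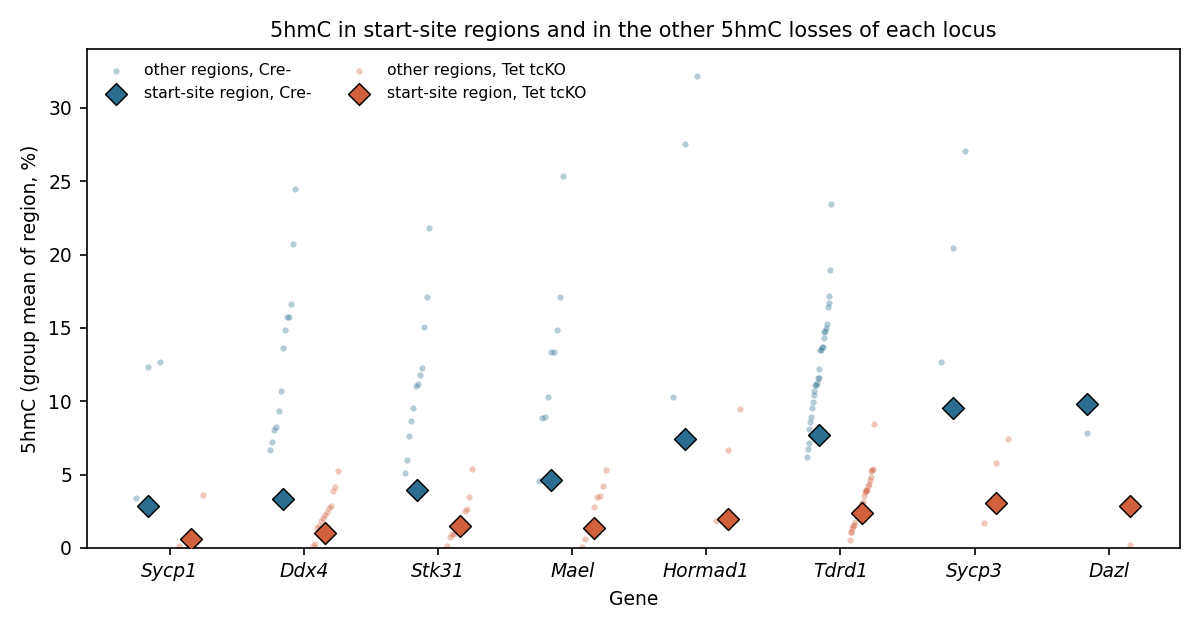
Mean 5hmC in percent (y axis) of the start-site region (diamonds) and of every other 5hmC loss at the locus (small points, spread sideways for legibility) in Cre- (blue) and Tet tcKO (orange), with the genes in order of the start-site level in Cre-. The start-site level in Cre- is 2.85% at Sycp1 and 9.84% at Dazl, and 69 of the 74 other losses lie above that of their own gene in Cre-.

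The highest 5hmC levels at these loci lay away from the start sites, the first 4 in flanks and an intron and the next 2, at Ddx4 (24.5%) and Tdrd1 (23.5%), in stretches that overlap coding exons. At Hormad1 a loss 4456 to 5354 bp upstream, within the neighbouring gene Ctss, had 32.2% in Cre- and 9.49% in Tet tcKO, the largest change of all 82 losses at -22.7 percentage points. The largest changes at the other loci were -21.3 points at Sycp3 (27.1% to 5.78%, downstream of the gene), -21.1 points at Mael (25.4% to 4.21%, intron), -20.4 points at Ddx4 (20.7% to 0.260%, intron), -17.0 points at Stk31 (17.1% to 0.10%, intron), -15.0 points at Tdrd1 (23.5% to 8.46%, overlapping coding exons) and -12.5 points at Sycp1 (12.7% to 0.143%, intron). Of these 7 regions all but that of Tdrd1, with 62 CpGs, had 4 to 7 CpGs. At Dazl the start-site region itself changed by -7.00 points and the other loss by -7.64 points. The plot of CpG density against level shows the pattern over all 82 losses: Spearman's rho between CpGs per 100 bases and the Cre- level was -0.53 (n = 82), -0.42 without the start-site regions (n = 74) and -0.48 over all 592,697 losses. Neighbouring regions share libraries and sequence, and rho is given here as a description.

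**Figure D3:**
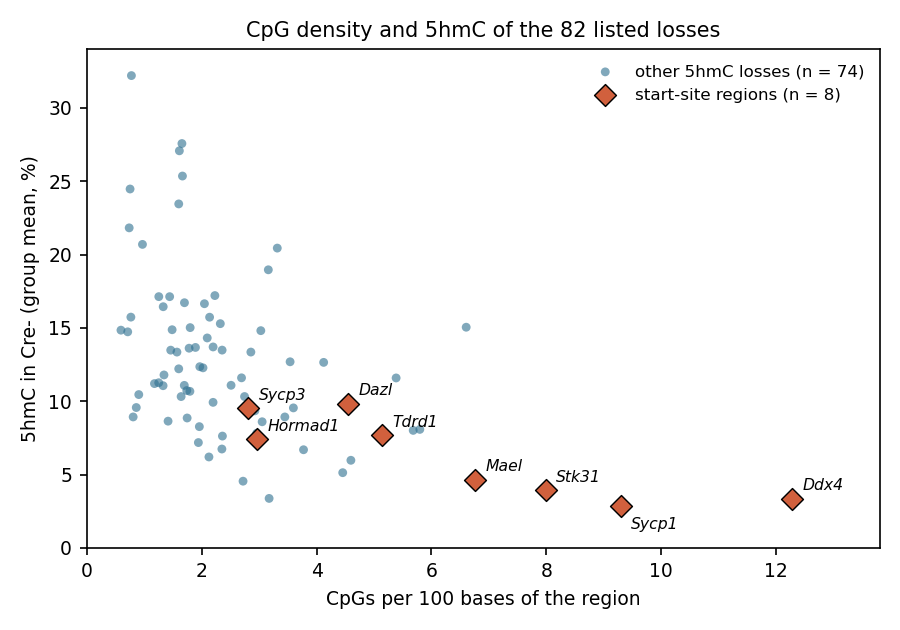
CpGs per 100 bases of each region (x axis) against its mean 5hmC in Cre- in percent (y axis) for the 82 listed 5hmC losses, with the 8 start-site regions as labelled diamonds. Ddx4 is the densest at 12.3 CpGs per 100 bases and 3.36%, and the levels above 20% all lie in regions less dense than the start-site region of Dazl, at 4.55.

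Gains of total modification were fewer than 5hmC losses. Of the 23 gains, 16 lay in the gene bodies of 4 genes, most of them at Tdrd1. Gene bodies also make up most of the bases of every locus, so this count shows no preference for them. A WGBS gain within 2 kb of the 5′ end was found at 4 of the 8 genes (Dazl, Ddx4, Sycp3 and Tdrd1), against 61.9% of CpG-dense genes and 47.4% of all genes, which is near those shares. None covered a 5′ end, and at a share of 2.37% of CpG-dense genes and 5.01% of all genes a count of 0 among 8 is near the background. Mael and Stk31 had no WGBS region at all. The total level at the start sites themselves was therefore not given by the list. Apart from the 5hmC levels above, which are a part of the total, only gains nearby bear on the modification of the promoters. The gains of Ddx4 and Dazl are shown because one lies closest to a 5′ end and the other has the lowest level. Both sequences are shown with every CpG in capitals, to the G of the last CpG, on the strand of the gene.
Ddx4, upstream of the 5′ end (chr13:112652562-112652677, - strand): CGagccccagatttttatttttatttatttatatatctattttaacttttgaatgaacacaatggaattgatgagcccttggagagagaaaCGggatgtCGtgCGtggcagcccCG
Dazl, in the first intron and the end of the exon at its second start site (chr17:50292774-50292826, - strand): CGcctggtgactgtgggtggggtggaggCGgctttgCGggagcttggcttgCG

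The Ddx4 sequence holds 5 CpGs and lies 87 to 201 bp before the 5′ end. Its total level went from 81.3% in Cre- to 85.9% in Tet tcKO, so most reads of this stretch were modified in both groups. Within 300 bp of the 5′ ends of CpG-dense genes there were 1006 gene and WGBS gain pairs, with a median level in Cre- of 8.35%, and only 3 of them (0.298%), Ddx4 included, were at or above the level of Ddx4. The Dazl sequence holds 4 CpGs and lies 811 to 862 bp after the 5′ end. Its total level was low in both groups, at 5.12% in Cre- against 8.22% in Tet tcKO. Within 300 bp of a 5′ end the list thus gave a total level at Ddx4 alone, where the level was high. That stretch had 4.35 CpGs per 100 bases, and no total level was listed for the denser start-site region of Ddx4 (12.3 per 100 bases). The description of these genes as having methylated promoters could therefore not be checked in the CpG-dense part of any of them. At Dazl the only total level in the first kilobase, over 4 CpGs, was low. It was below the 5hmC level of the start-site region (9.84% in Cre-), which ended 758 bp after the 5′ end, so it cannot stand for the promoter. At Sycp3 the total level of a stretch that began 609 bp after the 5′ end was 58.4% in Cre-.

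The remaining gains near start sites were those of Sycp3 and Tdrd1. At Sycp3 an intronic stretch of 18 CpGs, 609 to 1451 bp after the 5′ end, was 15.8 points higher in total level in Tet tcKO, at 74.2% against 58.4% in Cre-. A 5hmC loss 505 to 1107 bp after the 5′ end overlapped it, with 20.4% in Cre- and 7.40% in Tet tcKO. At Tdrd1 4 CpGs 1269 to 1516 bp before the 5′ end had 89.2% in Cre- and 96.2% in Tet tcKO. Farther from the start sites, Ddx4 had intronic gains of 59.1% to 70.9%, its largest rise at 11.8 points, and of 86.8% to 96.6%, and a gain downstream of the gene of 86.6% to 96.6%. Sycp1 had 1 gain, downstream of the gene, of 85.1% to 92.0%, and Hormad1 had 1, also downstream, of 63.2% to 78.7%. The Hormad1 gain lay 675 bp from the 5′ end of Golph3l.

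Tdrd1 held 15 of the 23 WGBS gains and 31 of the 82 5hmC losses. Its losses covered 47.8% of the 53.8-kb locus, whereas at the other 7 genes losses covered between 0.850% (Sycp1) and 14.1% (Dazl). Its gains covered 10.0% of the locus, against at most 3.56% elsewhere (Sycp3). The largest rise lay in an intron 9012 to 9516 bp after the 5′ end, where 13 CpGs went from 52.0% in Cre- to 77.7% in Tet tcKO, 25.7 points higher. The gain with the most CpGs, 16, lay in an intron 2180 to 2665 bp after the 5′ end and had 74.8% in Cre- against 85.1% in Tet tcKO. Next to the gain of largest rise lay the most CpG-rich 5hmC loss of the gene, 3870 bp with 62 CpGs, at 23.5% in Cre- and 8.46% in Tet tcKO. Over the 12 gains within the gene the total level in Cre- ran from 28.7% to 82.0%, and at the start site itself no gain was listed. The 2 gains farthest upstream had low levels, 11.0% to 21.4% and 14.0% to 27.6%, and lay 711 and 356 bp from the 5′ end of the neighbouring gene Ccdc186. Without Tdrd1 the other 7 loci held 8 WGBS gains and 51 5hmC losses.

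**Figure D4:**
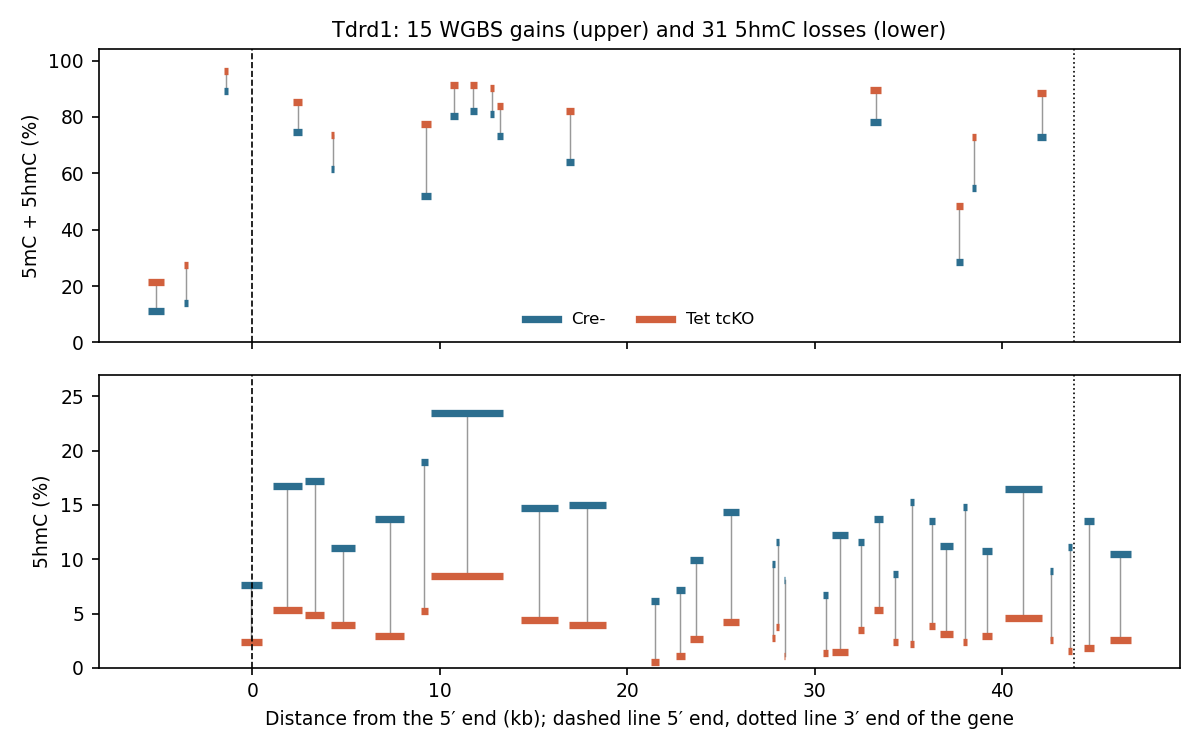
Group means in Cre- (blue) and Tet tcKO (orange) of the 15 WGBS gains (upper panel, 5mC and 5hmC together, %) and the 31 5hmC losses (lower panel, 5hmC, %) along Tdrd1, by distance in kb from the 5′ end; bars span each region. The 5hmC level at the start site, 7.67% in Cre-, is below that of most losses along the gene, and the largest WGBS rise lies about 9 kb downstream.

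Where gains and losses overlapped, the sizes of both were set side by side. A 5hmC loss was found under 14 of the 23 gains, 11 of them at Tdrd1. The other 3 were at Ddx4, Sycp3 and Hormad1. The share of all WGBS gains that overlap a 5hmC loss is not given here. The count therefore cannot be read as particular to these loci. Weighted by the CpGs of the gains, these 14 had total levels of 65.8% in Cre- against 80.4% in Tet tcKO, and the overlapping losses had 5hmC levels of 18.96% and 6.13%. 5hmC thus made up 28.8% of the total level in Cre- and 7.63% in Tet tcKO. Subtracting 5hmC from the total leaves 46.9% in Cre- and 74.3% in Tet tcKO for 5mC, an estimate only, since the regions of both assays differ in extent. At Ddx4 one intronic stretch of 5 CpGs (chr13:112602017-112602260) had the same bounds in both lists, with a total level of 86.8% in Cre- against 96.6% in Tet tcKO, and 5hmC of 16.6% and 4.17%.

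Over all 8 loci the rise in the WGBS gains, weighted by CpGs, was 13.4 percentage points (60.1% to 73.5%), against 17.4 points (56.7% to 74.1%) over all WGBS gains of the list. The 5hmC losses kept 26.6% of the Cre- level (11.1% to 2.96%), against 24.0% over all 5hmC losses (16.1% to 3.86%). Gains covered 1.82% and losses 11.5% of the bases of the loci, against 3.45% and 17.3% of the bases of the autosomes, X and Y. Tdrd1 decided these values, since without it they were 0.746% and 6.71%.

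Other germline genes were examined from a list of 40 genes of the piRNA pathway, meiosis and germ cells, all of which were found in the annotation. The list was chosen with the 8 genes and earlier results of these data known. Its shares are therefore a description and not independent support. A 5hmC loss covered the 5′ end of 24 of the 40 (60.0%, against 12.2% of all protein-coding genes). Only 17 of the 40 were CpG-dense, and 9 of these 17 (52.9%) had a covering loss, against the 2.63% of all CpG-dense genes. A WGBS gain covered the 5′ end of 4 of the 40 (10.0%, against 5.01% of all protein-coding genes). Of the 17 CpG-dense genes 3 had such a gain (17.6%, against 2.37% of all CpG-dense genes). Total levels in Cre- at these 3 were 5.05% to 23.3%. By the size of the change over the 5′ end in either assay, the leading genes were Tdrd9, Nanos3, Mei1, Piwil1, Smc1b and Tex15. Mei1 ranked there by its WGBS gain and the others by their 5hmC loss. Of these leading genes, only Mei1 and Smc1b were CpG-dense. At Tdrd9, a Tudor-domain helicase of the piRNA pathway, 5hmC went from 15.7% in Cre- to 4.87% in Tet tcKO and the total level from 85.2% to 91.8%. At Nanos3, a translational regulator of germ cells, 5hmC was 14.3% and 4.49%, and at Piwil1, a PIWI protein, it was 10.1% and 2.03%. At Mei1, a meiotic gene, 5hmC was 6.68% and 1.87% over 56 CpGs, and the total level was 23.3% and 33.1% over 50 CpGs. At Smc1b, a meiotic cohesin subunit, 5hmC was 10.4% and 2.62%, and at Tex15, a factor of male meiosis and transposon silencing, it was 9.95% and 2.31%.

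For comparison, the 31 CpG-dense genes of a list of nuclear genes of mitochondrial complex I were taken as housekeeping genes. A listed 5hmC loss covered the 5′ end of 0 of the 31, against 2.63% of all CpG-dense genes. A WGBS gain covered that of 1, against 2.37%, so both counts are near the background. The 1 gene was Ndufa13, a complex I subunit (6.89% in Cre- against 11.5% in Tet tcKO). All 31 had a 5hmC loss within 2 kb, against 93.2% of all CpG-dense genes. The plot of shares sets the lists beside each other.

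**Figure D5:**
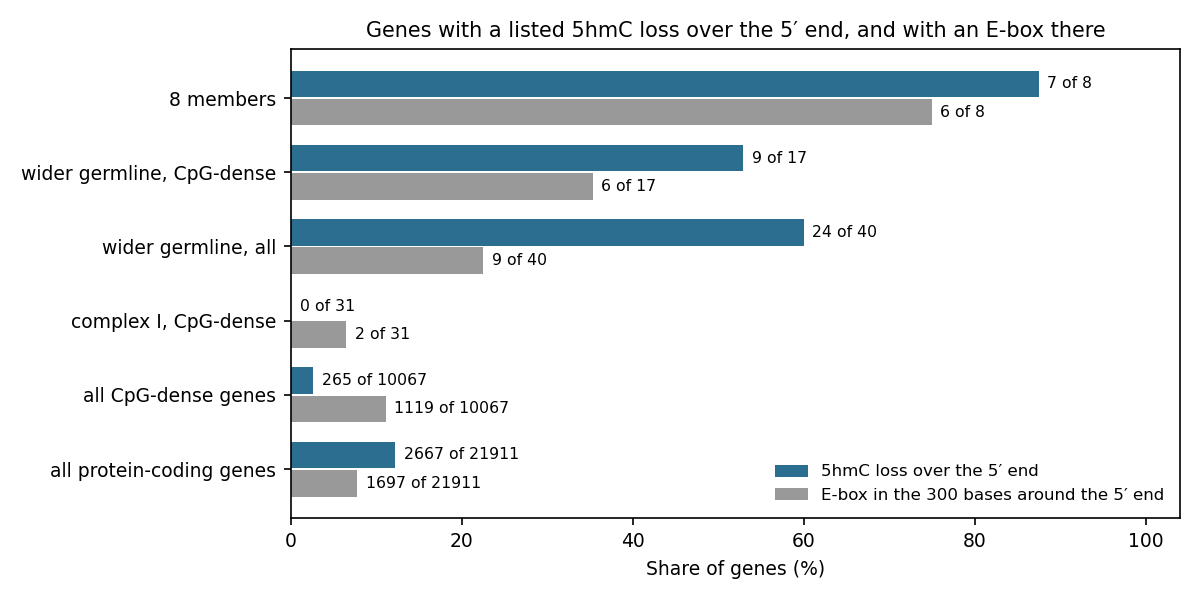
Share of genes in percent (x axis) with a listed 5hmC loss over the 5′ end (blue) and with the E-box motif in the 300 bases around it (grey), for the 8 genes described here (labelled members), the wider germline list, the CpG-dense complex I genes and all genes, with the numbers of genes beside the bars. The shares with a loss over the 5′ end are 87.5% of the 8 genes, 52.9% of the CpG-dense genes of the wider list, 0 of the 31 complex I genes and 2.63% of CpG-dense genes. The wider germline list was chosen with earlier results of these data known.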

How the data were processed

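As the study's methods describe, reads were trimmed by the authors (Trim Galore), aligned to mm10 with Bismark 0.18.2, took CpG levels with MethylDackel 0.6.1 and called regions with DSS, which smooths levels along the genome before testing. Smoothing blurs region bounds, and regions need several CpGs close together. The deposited levels are 1 fraction per group and region, pooled over replicates by the authors, and are printed here as percentages. The authors' own differences and area statistics were not used.

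Here, regions were joined to genes of the GENCODE M21 basic annotation by 1 bp of overlap (pandas 2.3.3, Python 3.11.15), an overlap step that was tested on simulated data. All 105 regions began and ended on a CpG of the reference. Changes are given as Tet tcKO minus Cre- (percentage points), and means are weighted by CpGs. The group order follows the names of the lists. The 5′ end is that of the gene record. The regions described singly are those within 2 kb of a 5′ end, that of largest change and that with most CpGs per gene and list. Of the other lists at most 6 genes are named, by the largest change over the 5′ end. Members and lists were chosen with earlier results of these data known. Alternatives were other flanks, windows, CpG and difference minimums, weights and a background of 2 percentage points, after the paper's estimate of unconverted cytosine. A few genes of these lists are not reported here.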

Additional observations from a re-analysis of the deposited data

How the results depend on the processing

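No paired analysis was possible because the lists hold 1 mean per group, and for the same reason no replicate could be left out. Of 59 values under alternatives (6 of them added after seeing the data), 42 stayed within 1.5 times of the reported one. With at least 10 CpGs per region there were 8 WGBS gains and 30 5hmC losses, 1 gene with a gain within 2 kb, and gains covered 0.839% of the bases. With a difference of at least 0.1 (10 percentage points) there were 33 losses, covering 6.05% of the bases, and 1 gene with a gain and 2 with a loss within 2 kb, since the start-site changes are small. A window of 0.3 kb left 1 gene with a gain, and 0 genes had a gain over the 5′ end. With a flank of 10 kb gains covered 2.74% of the bases. Without Tdrd1 there were 8 gains covering 0.746% and 51 losses covering 6.71% of the bases. The share of 5hmC kept was the value most open to unconverted cytosine: with 2 percentage points subtracted from both groups it fell from 26.6% to 10.5%, and the start-site region kept a larger share than the other losses at 1 gene in place of 8. A 5hmC loss over any annotated start site was found at 8 of 8 genes. The lists give no depth, so the precision of a level over 4 or 5 CpGs is unknown.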

Other observations

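The motifs searched at the 8 promoters were also set against 5hmC losses at other genes, where the share with a loss was no higher with a motif than without it. Among CpG-dense genes other than these 8, a loss covered the 5′ end of 2.16% of the 1113 genes with CACGTG and of 2.62% of the 8946 without it. For TCCCGC on either strand the shares were 1.83% of 4155 genes with it and 3.08% of 5904 without it, and for both motifs together 2.37% of 464 genes. This comparison was chosen after the values at the 8 genes had been seen, and the shares are given as a description.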
